A study of Mus musculus with 12 samples.

Results

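The comparison described here sets 3 libraries of messages pulled down with astrocyte ribosomes from a synaptoneurosome fraction (PAP TRAP, for peripheral astrocyte process TRAP) against 3 libraries of the RNA of that same fraction before the pull-down (synaptoneurosome input). These 6 libraries were chosen by their sample titles out of the 12 of the series. The other 6 are 3 cortex TRAP libraries, the same pull-down made from whole tissue, and 3 cortex input libraries. The tissue of all 4 groups was cortex plus hippocampus, taken on postnatal day 21 from mice of the C57/Bl6 strain. Every mouse carried the Aldh1L1::RPL10a-eGFP transgene, in which the Aldh1l1 promoter, active in astrocytes, drives a fluorescently tagged copy of the large-subunit ribosomal protein Rpl10a. All samples were treated with cycloheximide at 1 ug/mL, which holds ribosomes on their messages, and with 1 mM TTX, which blocks voltage-gated sodium channels, per the labels' protocols. Controls therefore carry the same transgene and treatment as the pull-downs, and the labels do not say which animals went into which library, nor whether animals were pooled. P-values measure the spread between libraries, which may be technical.

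Translating ribosome affinity purification (TRAP) uses antibodies against the tag to take out ribosomes of one cell type together with the messages bound to them. Synaptoneurosomes are pinched-off synaptic endings that reseal during mild homogenization and are collected from a density gradient. The fraction holds pieces of axon terminals, dendritic spines and the fine astrocyte processes that wrap synapses, and free mitochondria sediment near it. Astrocyte processes take up glutamate and potassium at synapses, and some messages are known to be carried out of the cell body into such processes, as others are into dendrites or into myelin.

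The PAP TRAP libraries held 5595315 to 6786096 counts on nuclear genes and the synaptoneurosome input libraries 1423296 to 2476076, so the input was the shallower side. Genes of the mitochondrial chromosome took 35.6% to 47.6% of all gene counts in PAP TRAP and 83.8% to 91.9% in synaptoneurosome input. PAP TRAP replicate 2 stood apart from the other PAP TRAP libraries. It had 52.9% of its counts in rows that name no gene, against 35.6% and 35.7% in replicates 1 and 3, and 11.9% of its counts in the row for unaligned reads, against 4.60% and 4.82%. Of 34 astrocyte markers tested it held the highest value of the 3 PAP TRAP libraries for 31, and of 24 neuron markers the lowest value for 22, while over all genes tested it was highest for 34.5% and lowest for 33.8%. Values without it are given beside the results that it moves. Its part in the results was not tested. Cortex TRAP replicate 2 likewise had 55.5% in rows that name no gene, against 43.5% and 44.5% in cortex TRAP replicates 1 and 3. Its row for unaligned reads held 11.3%, against 5.64% and 6.22%.

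The pull-down changed 605 of 13364 genes tested, which is 4.53% (adjusted p under 0.05, edgeR quasi-likelihood test with Benjamini-Hochberg adjustment over all genes tested). Of these, 401 (3.0%) were higher in PAP TRAP and 204 (1.53%) were lower. At an unadjusted p under 0.05 there were 2686 genes, or 20.1%. The median log2 change over all genes tested was 0.06. The values of both groups did not overlap for 398 of the 401 higher genes and 200 of the 204 lower ones, where 12.2% of all genes tested had groups that did not overlap with PAP TRAP higher and 9.39% with PAP TRAP lower, 21.6% in all. A rise of at least 4-fold was seen for 98 genes and a fall of at least that size for 53. The count rests on every library: leaving out any 1 of the 6 left 292 to 521 calls, and 108 higher and 48 lower genes were called in each of these 6 fits. When genes of the mitochondrial chromosome were dropped from both the scaling and the test, the median of all genes moved up by 0.13 on the log2 scale. The calls became 573 higher and 151 lower, so that 79.1% of calls were higher, against 66.3% with them. Of the 204 lower genes, 10 lie on the mitochondrial chromosome and could not be called in that fit.

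Astrocyte messages stood higher in the pull-down than in its input, by modest factors. Of 34 astrocyte markers tested, 13 rose and 0 fell, with a median log2 change of 0.92, against 3.0% of all genes called higher and a median of 0.06. Glul (chr1:153899944-153909723, GRCm38), which makes glutamine from glutamate taken up at synapses, had 1586, 3444 and 2522 normalized CPM (counts scaled to a common library size) in PAP TRAP replicates 1, 2 and 3, against 933, 964 and 827 CPM in synaptoneurosome input. The lowest PAP TRAP library was above the highest input, and the log2 change was 1.47 ± 0.25 (SE, n = 3 libraries per group, edgeR adjusted p = 0.00292). Aldoc, the aldolase form of astrocytes, had 803, 1730 and 1124 CPM in PAP TRAP and 419, 410 and 408 CPM in input, a log2 change of 1.56 ± 0.26 (edgeR adjusted p = 0.00235). Ndrg2, an astrocyte protein of the N-myc downstream regulated family, rose by 1.29 ± 0.25 and Hepacam, an adhesion protein of astrocyte contacts, by 1.34 ± 0.28, both on the log2 scale. Gfap, the astrocyte intermediate filament, had 128, 218 and 203 CPM in PAP TRAP and 91.2, 80.3 and 41.3 CPM in input, a log2 change of 1.37 ± 0.30 (edgeR adjusted p = 0.0128, and 0.053 without synaptoneurosome input replicate 3).

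Other defining astrocyte genes were not called by the edgeR test on all libraries and genes, though several were under other settings. Aldh1l1 itself, whose promoter drives the tag, had 18.9, 37.7 and 28.7 CPM in PAP TRAP and 16.4, 11.3 and 4.05 CPM in input, with no overlap between groups but an edgeR adjusted p of 0.0685. It was called by DESeq2 (adjusted p = 0.0376), by edgeR without a filter on low counts (0.00959) and by edgeR without mitochondrial genes (0.0466). Slc1a2, through which astrocytes clear most synaptic glutamate, had 20219, 39740 and 28242 CPM in PAP TRAP, against 18111, 18200 and 17179 CPM in input (log2 change 0.72 ± 0.24, edgeR adjusted p = 0.102, and 0.0272 without PAP TRAP replicate 1). It was also called by edgeR with thinned counts (adjusted p = 0.0455), with no filter (0.00306) and without mitochondrial genes (0.0252). Slc1a3, the second astrocyte glutamate transporter, overlapped between groups, with a log2 change of 0.72 ± 0.24 (edgeR adjusted p = 0.0949, 0.0418 without PAP TRAP replicate 1 and 0.0372 without mitochondrial genes). Aqp4, the water channel of astrocyte end-feet, had 131, 278 and 102 CPM in PAP TRAP and 126, 171 and 96.3 CPM in input, so that all but replicate 2 lay within the range of the input. Its log2 change was 0.38 ± 0.33, and −0.17 without PAP TRAP replicate 2. The gap junction gene Gja1 likewise had 0.38 ± 0.34, and −0.13 without that library. Rpl10a, the protein that carries the tag, was read at 1.40 to 2.56 CPM in PAP TRAP and 0.00 to 1.93 CPM in input, too few counts to check the tag (log2 change 0.95 ± 0.95), and no row of the files is named for the tag. With PAP TRAP replicate 1, 2 or 3 left out, the count of 13 astrocyte markers became 19, 6 or 11, and with synaptoneurosome input replicate 1, 2 or 3 left out it became 8, 9 or 5. It was 8 with GC-corrected offsets and 21 in the fit without mitochondrial genes. Summed over the list, astrocyte markers made up 6.44%, 12.7% and 8.33% of nuclear counts in PAP TRAP and 6.14%, 6.36% and 5.09% in synaptoneurosome input, so that in replicate 1 the summed share was near that of the input. Slc1a2 was by far the most abundant marker in each of these libraries. The sums therefore follow Slc1a2 above all and do not describe the markers as a group. In bulk RNA, fewer astrocyte fragments and less RNA per fragment cannot be told apart.

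**Figure D1:**
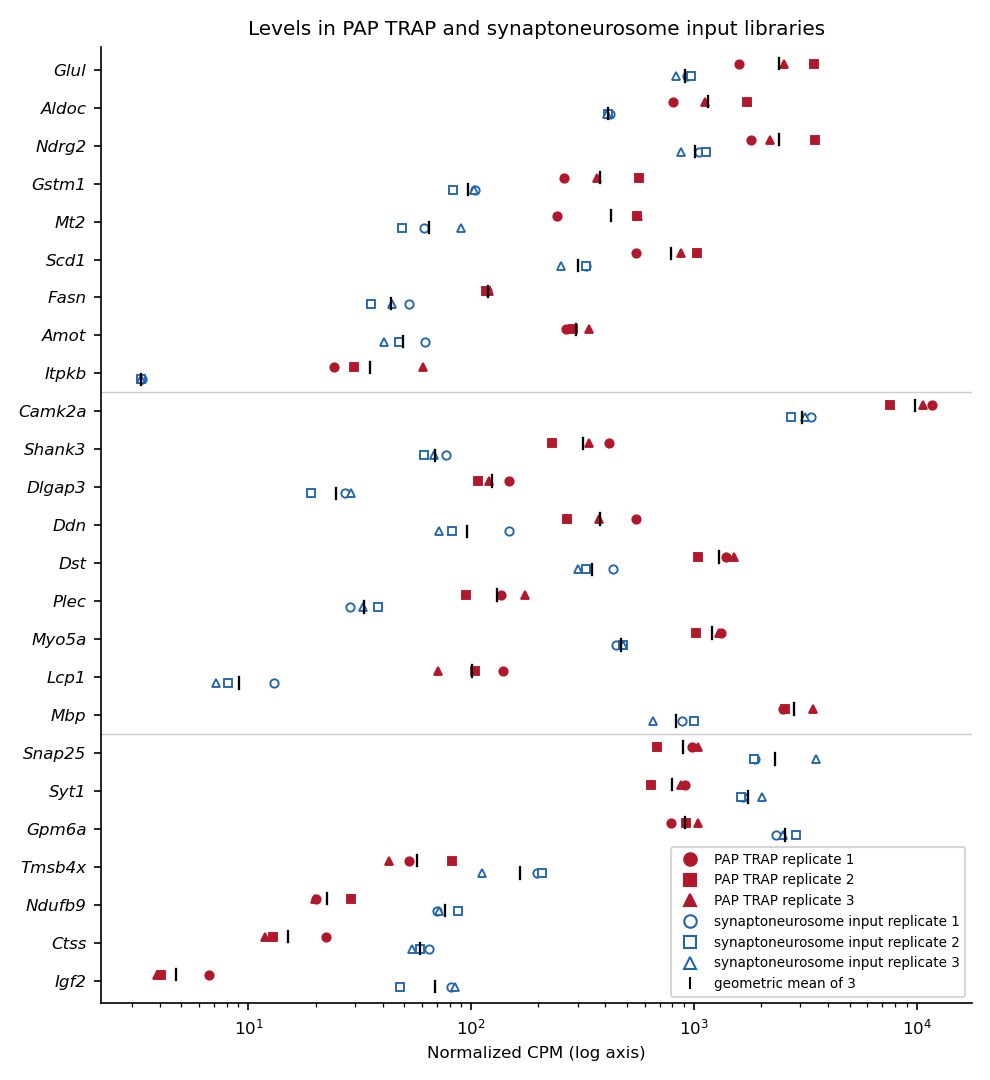
Normalized CPM (log axis) of 25 genes in the 3 PAP TRAP libraries (filled symbols, upper row of each gene) and the 3 synaptoneurosome input libraries (open symbols, lower row), with the geometric mean of each group as a vertical tick. From top to bottom are astrocyte and metabolic genes, dendritic, cytoskeletal and myelin genes, and lowered genes. In the upper block replicate 2 (squares) is often the highest PAP TRAP library, and for the dendritic genes Camk2a, Shank3, Dlgap3 and Ddn it is the lowest.

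Genes of astrocyte metabolism were among those that rose. Gstm1, a glutathione transferase, had 260, 565 and 367 CPM in PAP TRAP and 104, 83.0 and 103 CPM in input, a log2 change of 2.04 ± 0.28 (edgeR adjusted p = 0.000605). Mt2, a metallothionein that binds zinc and copper, had 241, 557 and 562 CPM in PAP TRAP, against 61.7, 48.7 and 89.9 CPM in input (2.76 ± 0.44). Of 20 genes of fatty acid synthesis, activation and desaturation tested, 6 rose and 0 fell (median 0.51). Scd1, a desaturase that makes monounsaturated fatty acids, had 547, 1036 and 873 CPM in PAP TRAP and 328, 326 and 254 CPM in input. Fasn, the fatty acid synthase, was even across the pull-down libraries, with 118, 117 and 121 CPM in PAP TRAP and 52.6, 35.5 and 44.2 CPM in input (1.42 ± 0.26, edgeR adjusted p = 0.00441). The count of 6 became 2 without PAP TRAP replicate 2, 3 without synaptoneurosome input replicate 2 and 2 without synaptoneurosome input replicate 3. Among 23 genes of glycolysis, glycogen and lactate, 3 rose and 0 fell, and among 21 of serine, glycine, cysteine and glutathione metabolism 3 rose and 0 fell. Each of these counts of 3 was 2 to 4 when 1 library was left out. Among 22 of cholesterol synthesis 1 rose (median 0.10). That list lay near all genes tested, of which 3.0% were called higher, with a median of 0.06. None of 71 cytosolic ribosomal protein genes, 31 proteasome subunits or 24 RNA-binding regulators of localization and decay was called in either direction by the edgeR test. At an adjusted p under 0.05 DESeq2 called 1, 2 and 1 of them, all lower. At an unadjusted p under 0.05 edgeR had 0 higher and 1 lower ribosomal protein gene, 0 higher and 3 lower proteasome subunits, and 1 higher and 4 lower RNA-binding regulators.

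Itpkb, Amot and Myh9 are named for the size of their rise and stand for no gene group. Itpkb (chr1:180330485-180424802, GRCm38), a kinase that phosphorylates inositol trisphosphate, the second messenger that opens calcium stores, had 24.3, 29.7 and 60.5 CPM in PAP TRAP and 3.34, 3.28 and 3.28 CPM in input, a log2 change of 3.53 ± 0.46 (edgeR adjusted p = 0.000445). It was the only called gene of 16 inositol phosphate and calcium store genes tested. Amot, angiomotin, which links junctions to actin, had 266, 288 and 339 CPM in PAP TRAP and 62.3, 47.2 and 40.5 CPM in input (2.58 ± 0.34). Myh9, a nonmuscle myosin, had 207, 152 and 129 CPM in PAP TRAP and 36.2, 14.3 and 12.5 CPM in input (2.96 ± 0.51, and 3.61 without synaptoneurosome input replicate 1). Ezr, the membrane-to-actin linker ezrin that lines fine astrocyte processes, had 77.1, 132 and 142 CPM in PAP TRAP and 64.1, 40.6 and 52.3 CPM in input. Its log2 change was 1.16 ± 0.30 (edgeR adjusted p = 0.0346), and the call was lost without PAP TRAP replicates 2 or 3 or any 1 of the input libraries (0.0563 to 0.133). Of 20 fine-process actin regulators tested, among them Ezr, 5 rose and 2 fell, and the median was 0.16. Over all genes tested 3.0% rose and 1.53% fell. The 5 rises became 3 without PAP TRAP replicate 2 or with GC-corrected offsets, and 2 without any 1 of the input libraries. The 2 falls became 1 with GC-corrected offsets, without PAP TRAP replicates 1 or 2 and without synaptoneurosome input replicates 2 or 3.

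Dendritic messages rose as well. Of 22 dendritic and neuropil messages tested, transcripts described in dendrites, 13 rose and 1 fell, with a median log2 change of 1.17. The shares over all genes tested were 3.0% higher and 1.53% lower. Camk2a, the kinase subunit whose message travels into dendrites, had 11742, 7554 and 10689 CPM in PAP TRAP and 3331, 2736 and 3159 CPM in input (1.70 ± 0.32, edgeR adjusted p = 0.00615). Shank3 (chr15:89499623-89560261, GRCm38), a scaffold of the postsynaptic density, had 413, 230 and 339 CPM in PAP TRAP, against 77.2, 61.2 and 68.1 CPM in input (2.25 ± 0.31). Dlgap3, which joins Shank proteins to the density, had 147, 107 and 121 CPM in PAP TRAP and 27.0, 19.1 and 29.0 CPM in input (2.32 ± 0.31, edgeR adjusted p = 0.000548). Ddn, dendrin, an actin-associated dendritic protein, had 547, 268 and 375 CPM in PAP TRAP, against 148, 81.8 and 72.0 CPM in input (1.98 ± 0.31). In all 4 genes replicate 2 was the lowest PAP TRAP library, and still above every input library. Ppp1r9b, spinophilin, which holds a phosphatase in spines, rose by 1.61 ± 0.26 on the log2 scale. As a share of nuclear counts the list took 5.39%, 3.56% and 4.22% in PAP TRAP and 3.10%, 2.62% and 2.32% in input. Leaving out PAP TRAP replicate 1, 2 or 3 gave 8, 10 or 11 calls in place of 13, leaving out synaptoneurosome input replicate 1, 2 or 3 gave 6, 7 or 7, and offsets corrected for GC content gave 6.

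Large cytoskeletal linkers were also higher. Of 13 spectrins, ankyrins and cytolinkers tested, 10 rose and 0 fell, and all 13 changes were positive, with a median log2 change of 1.48. Among all genes tested 3.0% rose and 1.53% fell. Dst, dystonin, which ties microtubules, actin and intermediate filaments together, had 1391, 1041 and 1509 CPM in PAP TRAP, against 431, 327 and 302 CPM in input (1.89 ± 0.26). Macf1, a relative of dystonin, rose by 1.95 ± 0.28, and Plec, plectin, by 2.02 ± 0.30, both on the log2 scale. Among 28 kinesin, dynein and myosin motors, 4 rose and 1 fell (median 0.24). Myo5a, a myosin that moves cargo into spines, had 1314, 1015 and 1289 CPM in PAP TRAP and 446, 479 and 481 CPM in input (1.36 ± 0.20). Myo6, a myosin that moves toward the minus end of actin, had 584, 628 and 626 CPM in PAP TRAP, against 170, 196 and 116 CPM in input (1.93 ± 0.28). The count of 10 linkers became 6 without PAP TRAP replicate 3, and 6, 6 or 5 when synaptoneurosome input replicate 1, 2 or 3 was left out.

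Few presynaptic and receptor genes of neurons were called, and most of those were lower. Over all genes tested 3.0% were called higher and 1.53% lower. Of 26 genes of presynaptic vesicles and release, 0 rose and 2 fell (median −0.17). Snap25, a fusion protein of vesicles, had 983, 685 and 1042 CPM in PAP TRAP and 1869, 1858 and 3544 CPM in input (−1.42 ± 0.27), and Syt1, the calcium sensor of release, 913, 641 and 874 CPM in PAP TRAP and 1656, 1626 and 2008 CPM in input (−1.12 ± 0.23). With offsets corrected for GC content the call of Syt1 was lost (edgeR adjusted p = 0.0688) and that of Snap25 was not (0.0483). Of 24 glutamate receptor subunits, 1 rose and 3 fell (median −0.21), among them the AMPA receptor subunit Gria2 (−1.18 ± 0.26, edgeR adjusted p = 0.0588 without synaptoneurosome input replicate 3). Of 15 GABA receptor subunits, 0 rose and 4 fell (median −0.84), and of 24 neuron markers 1 rose and 4 fell (median −0.32). With GC-corrected offsets 1 of the 3 glutamate receptor falls and 0 of the 4 GABA receptor falls were called. The 3 glutamate receptor falls became 1 when PAP TRAP replicate 2 was left out, 1 for either of synaptoneurosome input replicates 1 and 2, and 0 for synaptoneurosome input replicate 3. The 4 neuron marker falls became 2 without synaptoneurosome input replicate 1 and 7 by DESeq2. The 4 GABA receptor falls became 0 without PAP TRAP replicates 2 or 3 or synaptoneurosome input replicate 1, 2 without PAP TRAP replicate 1 or synaptoneurosome input replicate 2, and 1 without synaptoneurosome input replicate 3. The neuropeptide Npy had 13.5, 8.26 and 14.9 CPM in PAP TRAP and 63.8, 47.2 and 32.2 CPM in input (−1.96 ± 0.41, edgeR adjusted p = 0.0558 without synaptoneurosome input replicate 1).

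Myelin genes split. Mbp, myelin basic protein, whose message is carried into the myelin sheath, had 2508, 2546 and 3433 CPM in PAP TRAP and 878, 994 and 654 CPM in input, a log2 change of 1.75 ± 0.30 (edgeR adjusted p = 0.00292). It was the only 1 of 18 myelinating oligodendrocyte markers to rise, while 4 fell and the median was −0.38. The shares of all genes tested were 3.0% higher and 1.53% lower. Tspan2, a tetraspanin of oligodendrocytes, had 162, 142 and 170 CPM in PAP TRAP, against 280, 311 and 368 CPM in input (−1.02 ± 0.23), and Ugt8a, which makes the myelin lipid galactosylceramide, 48.0, 33.4 and 49.5 CPM in PAP TRAP, against 98.1, 110 and 120 CPM in input (−1.33 ± 0.31). Of the 4 falls, 0 remained without PAP TRAP replicate 2 or synaptoneurosome input replicate 3, 1 without synaptoneurosome input replicate 2, 2 without PAP TRAP replicate 3 or synaptoneurosome input replicate 1, and 0 once offsets were corrected for GC content. As a list, myelin genes held 0.980%, 0.892% and 1.19% of nuclear counts in PAP TRAP and 0.853%, 0.963% and 0.795% in input. These sums include the abundant Mbp, so they do not show how the other members moved. None of 12 oligodendrocyte precursor markers was called by edgeR or DESeq2 at an adjusted p under 0.05 (by edgeR, 1 was higher and 0 were lower where p was not adjusted).

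**Figure D2:**
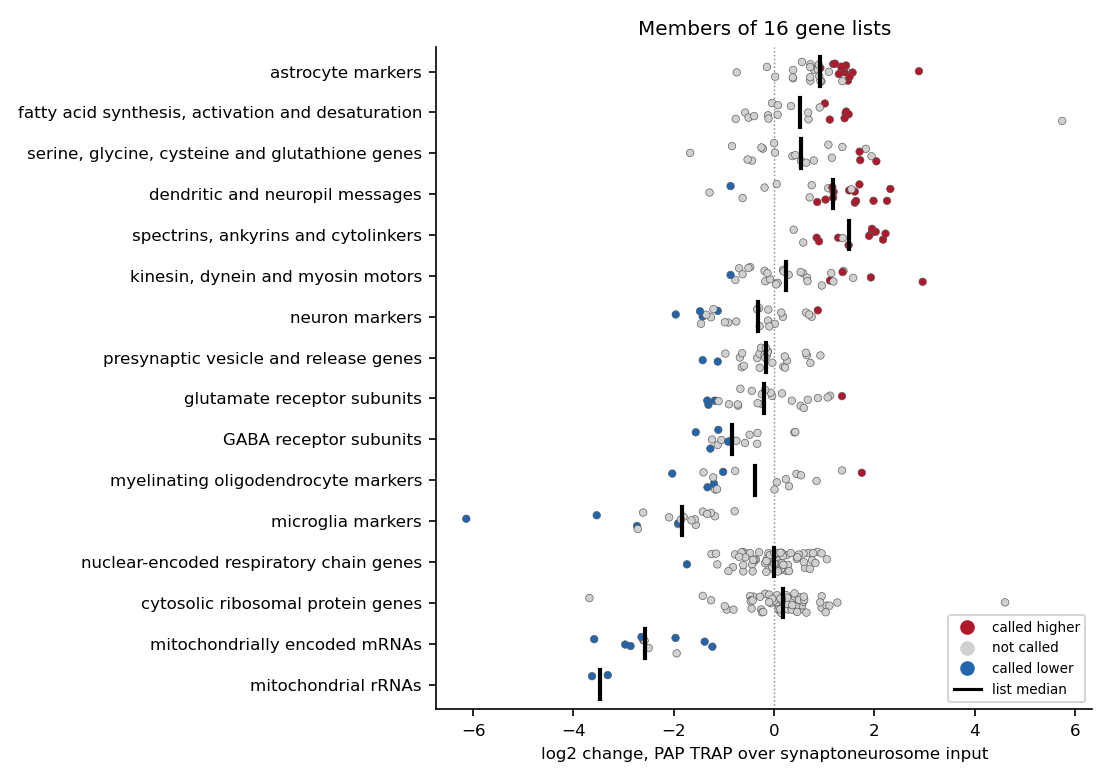
Log2 change of PAP TRAP over synaptoneurosome input for each tested member of 16 gene lists (points spread vertically for legibility), colored by call, with the list median as a black line. Astrocyte, dendritic and spectrin lists have their medians right of 0, at 0.92, 1.17 and 1.48, and all microglial genes and mitochondrial mRNAs and rRNAs lie left of it.

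The rRNAs and most mRNAs of the mitochondrial chromosome fell, and its tRNAs did not pass the test. The 2 mitochondrial rRNAs summed to 74.7, 56.0 and 47.6 counts per 100 nuclear counts in PAP TRAP and 802, 1075 and 486 in synaptoneurosome input, and the encoded mRNAs to 15.9, 9.58 and 7.72 in PAP TRAP and 74.2, 58.3 and 31.1 in input. Both pull-down ranges lay below the input ranges. The large rRNA, mt-Rnr2, fell by 3.63 ± 0.27 on the log2 scale and the small one, mt-Rnr1, by 3.32 ± 0.25 (edgeR adjusted p = 4.12e-07 each), and the change of mt-Rnr2 was −3.02 with GC-corrected offsets. Of 11 encoded mRNAs tested, 8 fell, all 11 changes were negative, and the median was −2.58. Of 14 mitochondrial tRNAs tested, 0 were called in either direction by edgeR or DESeq2 at an adjusted p under 0.05, and at an unadjusted p under 0.05 edgeR had 0 higher and 1 lower. Their log2 changes ran from −2.42 to 1.15 with a median of −0.31, and 5 were positive. They summed to 0.0688, 0.0425 and 0.0323 counts per 100 nuclear counts in PAP TRAP and 0.0801, 0.0856 and 0.0424 in input, ranges that overlap. The mRNAs changed unevenly: mt-Cytb, of respiratory complex III, had −2.86 ± 0.33 and mt-Nd5, of complex I, −2.61 ± 0.32, whereas mt-Co1, of complex IV, had −1.38 ± 0.23. As a share of all gene counts, mt-Co1 took 2.43%, 1.83% and 1.95% in PAP TRAP and 1.14%, 0.948% and 1.43% in input, so its direction on that scale is the opposite. It was not alone: another encoded mRNA, of complex I, and nearly all of the tRNAs tested also had every PAP TRAP share above every input share. Of 68 nuclear-encoded genes of the same respiratory chain 0 rose and 1 fell, and the median was 0.00. The 1 was Ndufb9, a complex I subunit, with 20.1, 28.8 and 19.8 CPM in PAP TRAP and 70.5, 87.2 and 71.8 CPM in input (−1.74 ± 0.35). Of the 204 lower genes, 7 are annotated as pseudogenes. Reads of near-identical copies may be split between genes, so the falls of pseudogenes are not counted as separate observations.

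Among markers of other cell types, 4 of 18 for microglia and 1 of 13 for meninges and fibroblasts were lower. For comparison, 1.53% of all genes tested were lower and 3.0% higher. Igf2 (chr7:142650766-142666816, GRCm38), insulin-like growth factor 2, made in the brain mainly by meninges, vessels and choroid plexus, had 6.67, 4.05 and 3.89 CPM in PAP TRAP and 80.8, 47.8 and 84.5 CPM in input, a log2 change of −3.87 ± 0.36 (edgeR adjusted p = 7.50e-06). It was the only gene of 13 meningeal and fibroblast markers called by edgeR (median −0.35). DESeq2 called 2 of them lower, and at an unadjusted p under 0.05 edgeR had 0 higher and 4 lower. None of 10 endothelial or mural markers was called by edgeR or DESeq2 at an adjusted p under 0.05, nor by edgeR at an unadjusted p under 0.05, which had 0 higher and 0 lower. Of 6 ependymal and choroid plexus markers edgeR called 0 and DESeq2 called 1 lower, and without adjustment edgeR had 2 higher and 2 lower at p under 0.05. Of 18 microglia markers, 0 rose, 4 fell and all 18 changes were negative (median −1.83). Summed, they came to 0.0520%, 0.0344% and 0.0373% of nuclear counts in PAP TRAP and 0.189%, 0.134% and 0.0876% in input. Ctss, a lysosomal protease of microglia, had 22.4, 12.9 and 11.9 CPM in PAP TRAP and 64.4, 58.8 and 54.0 CPM in input (−1.91 ± 0.40). The other 3 calls did not hold without PAP TRAP replicates 2 or 3 or synaptoneurosome input replicates 1 or 2, each of which left 1. GC-corrected offsets left 2 and DESeq2 called 9. Gpm6a, a membrane glycoprotein of growing neurites, had 788, 922 and 1042 CPM in PAP TRAP, against 2334, 2874 and 2504 CPM in input (−1.49 ± 0.21), and Tmsb4x, thymosin beta 4, which holds actin monomers, had 52.7, 82.1 and 42.9 CPM in PAP TRAP and 197, 208 and 112 CPM in input (−1.54 ± 0.29). Among 8 nuclear long noncoding RNAs, 1 rose and 2 fell, but leaving out PAP TRAP replicate 1 or 2 or synaptoneurosome input replicate 3 left 0 of the falls, and leaving out PAP TRAP replicate 3 or synaptoneurosome input replicate 1 left 1. Malat1 had 209, 111 and 343 CPM in PAP TRAP and 410, 289 and 1228 CPM in input, ranges that overlap (−1.54 ± 0.44, edgeR adjusted p = 0.0499). Its call ended without PAP TRAP replicates 1 or 2 or synaptoneurosome input replicates 1 or 3, and its log2 change was −0.65 without synaptoneurosome input replicate 3.

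Pou2af1, Irf4, Igkc and Ighg1, of the B lineage list, were read in every PAP TRAP library and had at most 1 count in each synaptoneurosome input library. Pou2af1, a coactivator of immunoglobulin genes, had 74, 788 and 108 counts in PAP TRAP replicates 1, 2 and 3, or 6.49, 65.1 and 8.39 CPM, and 0 counts in all 3 synaptoneurosome input libraries. Against a floor of 3 counts in each input library, the mean was at least 33.5-fold higher, and at least 9.36-fold higher without PAP TRAP replicate 2. Irf4, a transcription factor of B and plasma cells, had 99, 578 and 70 counts in PAP TRAP and 0, 1 and 0 in input. Igkc, the constant region of the kappa light chain, had 19, 246 and 45 counts in PAP TRAP and 1, 0 and 0 in input, and Ighg1, a heavy chain constant region, 7, 145 and 3 in PAP TRAP and 0 in each input library, without a call (edgeR adjusted p = 0.0917). In each of these 4 genes PAP TRAP replicate 2 was by far the highest. Another heavy chain constant region of the list was more even, with 17, 28 and 18 counts in PAP TRAP and 0, 1 and 0 in input. A further one had 4, 1 and 4 counts in PAP TRAP and 0, 1 and 1 in input. In the whole tissue Pou2af1 had 66, 244 and 29 counts in cortex TRAP and 15, 0 and 0 in cortex input, and Irf4 had 0, 368 and 64 in cortex TRAP and 0, 29 and 4 in cortex input. Replicate 2 was the highest there too. The B cell genes Cd79b and Ms4a1 were at or near 0 in all 12 libraries, with at most 3 counts and at most 1. Ighm, the heavy chain of naive B cells, had 228, 212 and 281 counts in PAP TRAP and 259, 91 and 102 in input, at 17.5 to 21.8 CPM in PAP TRAP and 19.7 to 78.7 CPM in input. Of 15 B lineage and plasma cell genes tested, 4 rose and 0 fell, against 3.0% and 1.53% of all genes tested. Of the 35 genes listed, 32 were matched. Changes were negative for 3 of the 15, which were Ighm, Cd53 and Blnk. Cd53, a tetraspanin of white blood cells, had 7.55, 1.74 and 2.41 CPM in PAP TRAP and 28.0, 17.6 and 13.9 CPM in input, with no overlap (−2.34 ± 0.67, edgeR adjusted p = 0.0507). It was called lower by DESeq2 (adjusted p = 0.00248) and by edgeR without PAP TRAP replicate 1 (0.0246), with the 6 libraries alone (0.0344), with RLE scaling (0.0494) and with a replicate block (0.0446). The count of 4 became 2 without synaptoneurosome input replicates 1 or 2 and 1 when PAP TRAP replicate 2 or synaptoneurosome input replicate 3 was left out. The calls of Pou2af1, Igkc and Irf4 ended without PAP TRAP replicate 2 (edgeR adjusted p = 0.0542, 0.138 and 0.149). They also ended without synaptoneurosome input replicates 1 or 3 for Pou2af1 (0.0512 and 0.0606), 2 or 3 for Igkc (0.0725 and 0.0789), and each of the other libraries but PAP TRAP replicate 3 for Irf4 (0.0509 to 0.167).

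The fourth called gene of that list behaved differently. Lcp1, L-plastin, an actin-bundling protein of white blood cells, had 138, 104 and 70.7 CPM in PAP TRAP and 13.1, 8.06 and 7.14 CPM in synaptoneurosome input, a log2 change of 3.48 ± 0.64 (edgeR adjusted p = 0.00474) called without any 1 of the 6 libraries. Its PAP TRAP replicates were all above every input library, and replicate 2 was in the middle. In the whole-tissue pull-down it went the other way, with 2.15, 0.249 and 0.0598 CPM in cortex TRAP and 6.70, 3.52 and 5.01 CPM in cortex input.

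**Figure D3:**
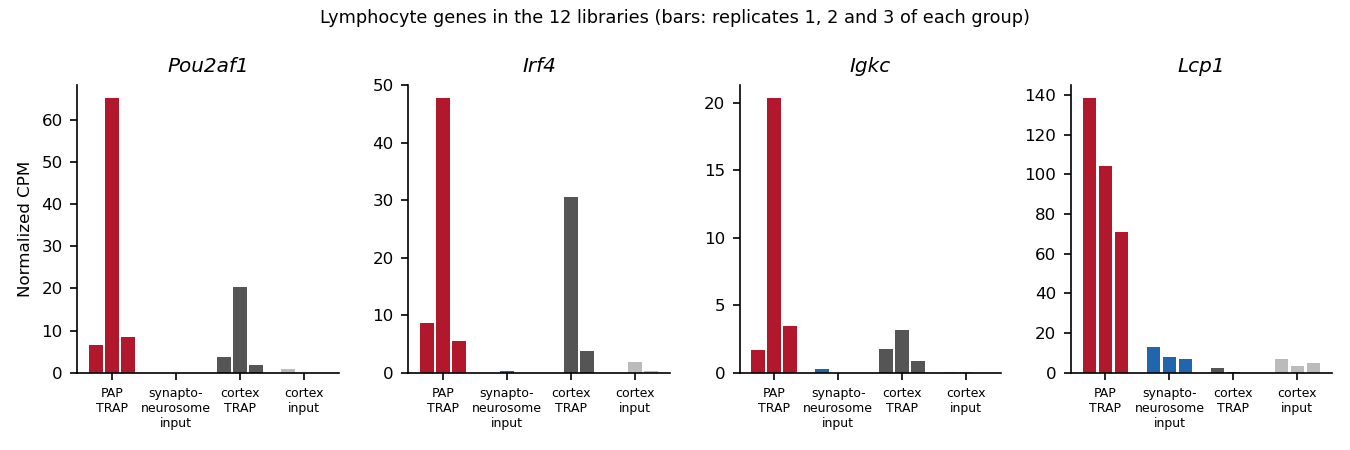
Normalized CPM of Pou2af1, Irf4, Igkc and Lcp1 in each of the 12 libraries, as bars from 0 in the order of replicates 1, 2 and 3 within each group. Pou2af1, Irf4 and Igkc peak in replicate 2 of both pull-downs, at 65.1, 47.8 and 20.3 CPM in PAP TRAP, whereas Lcp1 is high in all 3 PAP TRAP libraries (70.7 to 138 CPM).

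The pull-down from whole tissue gives a reading of what the same antibody took from the cell body as well, and shares no library with the comparison above. It changed 4737 genes, or 35.4% of those tested. Of the 401 genes higher in PAP TRAP, 198 (49.4%) were also higher in cortex TRAP, which is 9.31% of the 2127 genes higher there, where 15.9% of all genes tested were higher in cortex TRAP. A further 95 (23.7%) were lower in cortex TRAP, against 19.5% of all genes tested, and the other 108 were not called there. Of the 204 genes lower in PAP TRAP, 144 (70.6%) were lower in cortex TRAP and 6 (2.94%) were higher. Across all 13364 genes the Spearman correlation of both changes was 0.26, a description over genes, which are not independent replicates.

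The sizes of the changes differed between the fractions, as tested by the interaction term. That test called 2699 genes, or 20.2%, with a positive difference (fraction minus whole tissue) for 1721, or 12.9%, and a negative one for 978, or 7.32%. For the 401 higher genes the difference was positive for 150 and negative for 93. Differences of astrocyte genes were negative: of 34 astrocyte markers 33 had a called negative difference, with a median log2 change of 0.92 in PAP TRAP over its input and 4.12 in cortex TRAP over its input. Glul rose by 1.47 ± 0.25 in the fraction, against 4.42 ± 0.29 in the whole tissue (difference −2.95 ± 0.36, edgeR adjusted p = 9.69e-06). Dendritic messages and linkers had positive ones: 19 of 22 dendritic messages and 11 of 13 spectrins, ankyrins and cytolinkers had a called positive difference. Camk2a changed by 1.70 ± 0.32 in the fraction and by −3.11 ± 0.34 in the whole tissue, and Mbp by 1.75 ± 0.30 and −2.63 ± 0.31. Fasn, Amot, Myo6 and Itpkb rose in both pull-downs without a called difference, with 1.42 ± 0.26, 2.58 ± 0.34, 1.93 ± 0.28 and 3.53 ± 0.46 in the fraction and 1.60 ± 0.26, 2.19 ± 0.33, 1.64 ± 0.28 and 2.16 ± 0.41 in the whole tissue. Igf2, Gpm6a and Ndufb9 were lower in the fraction with a called negative difference. Igf2 changed by −3.87 ± 0.36 in the fraction and −0.10 ± 0.31 in the whole tissue, Gpm6a by −1.49 ± 0.21 and 0.31 ± 0.20, and Ndufb9 by −1.74 ± 0.35 and 1.34 ± 0.34 (edgeR adjusted p of the difference = 1.22e-05, 0.000163 and 0.000141).

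**Figure D4:**
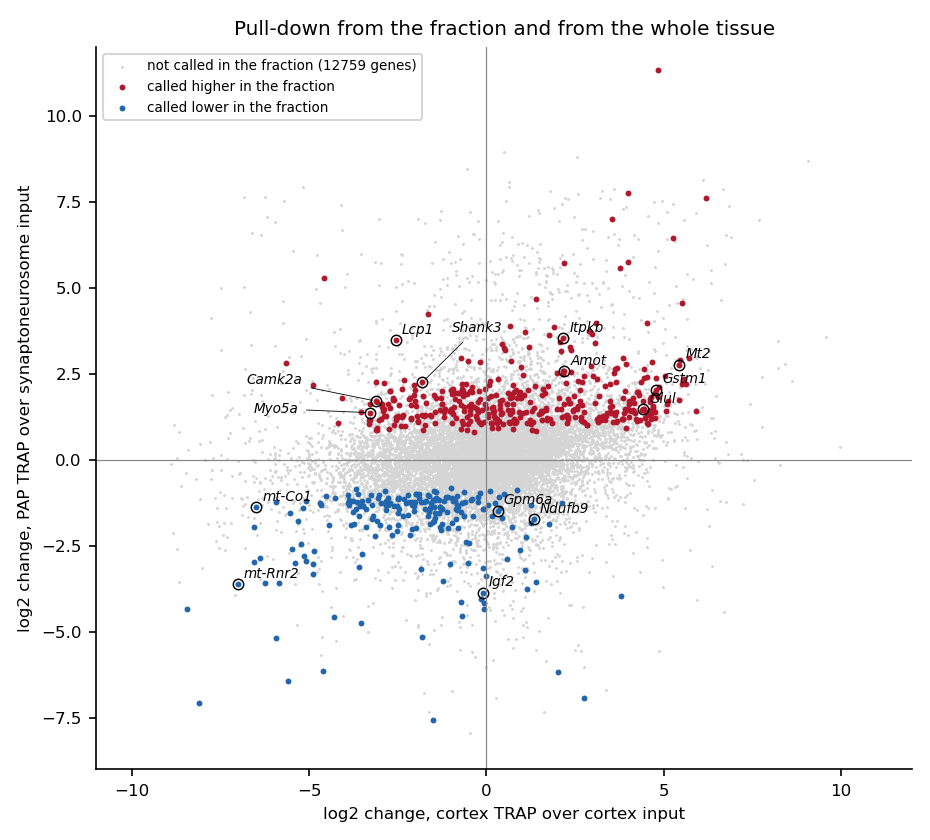
Log2 change of PAP TRAP over synaptoneurosome input (vertical) against log2 change of cortex TRAP over cortex input (horizontal) for the 13364 genes tested, with the 401 higher genes in red, the 204 lower genes in blue and named genes ringed. Red points lie on both sides of the vertical line, 198 of them higher and 95 lower in cortex TRAP, while most blue points lie left of it.

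The place of PAP TRAP replicate 2 among the higher genes depended on their direction in the whole tissue. Among the 198 genes higher in both pull-downs it was the highest of the 3 PAP TRAP libraries for 127 and the lowest for 23. Among the 95 genes higher in PAP TRAP and lower in cortex TRAP it was the highest for 2 and the lowest for 77, and replicate 1 was the highest for 69. Without replicate 2 the fit called 243 genes higher and 86 lower.

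Base composition went along with the direction of change. Over the 6127 nuclear protein-coding genes whose mean log2 CPM was 3 or more, the share called higher was 0.343% for transcripts under 40% GC, 3.50% at 45 to 50%, 12.9% at 55 to 60% and 20.6% at 60% or more. The share called lower ran the other way, with 8.56% under 40% GC and 0.00% at 60% or more. The median log2 change was −0.37 in the lowest bin and 0.73 in the highest. For cortex TRAP over its input the same bins had medians of −0.44 and −0.49, with no such slope between them. The median change of genes with a GC content of 55% or more exceeded that of genes under 45% by 0.86, 0.53 and 0.80 on the log2 scale in PAP TRAP replicates 1, 2 and 3, against 0.06, −0.08 and 0.00 in synaptoneurosome input replicates 1, 2 and 3, each relative to the mean of the input. Among all tested protein-coding genes, higher ones had a median GC content of 54.9%, lower ones 45.2% and those not called 50.2%. Their median coding lengths were 1704, 1058 and 1449 bases. In bins of log2 CPM 3 to 5, 5 to 7 and 7 or over, higher genes had median coding lengths of 1476, 1989 and 2230 bases. Genes not called had 1554, 1852 and 2253 bases and lower ones 836, 1062 and 1172. Only the shorter length of lower genes held in every bin. With offsets corrected for GC content 243 genes were higher and 80 lower, of which 221 and 71 were among the 401 and 204.

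**Figure D5:**
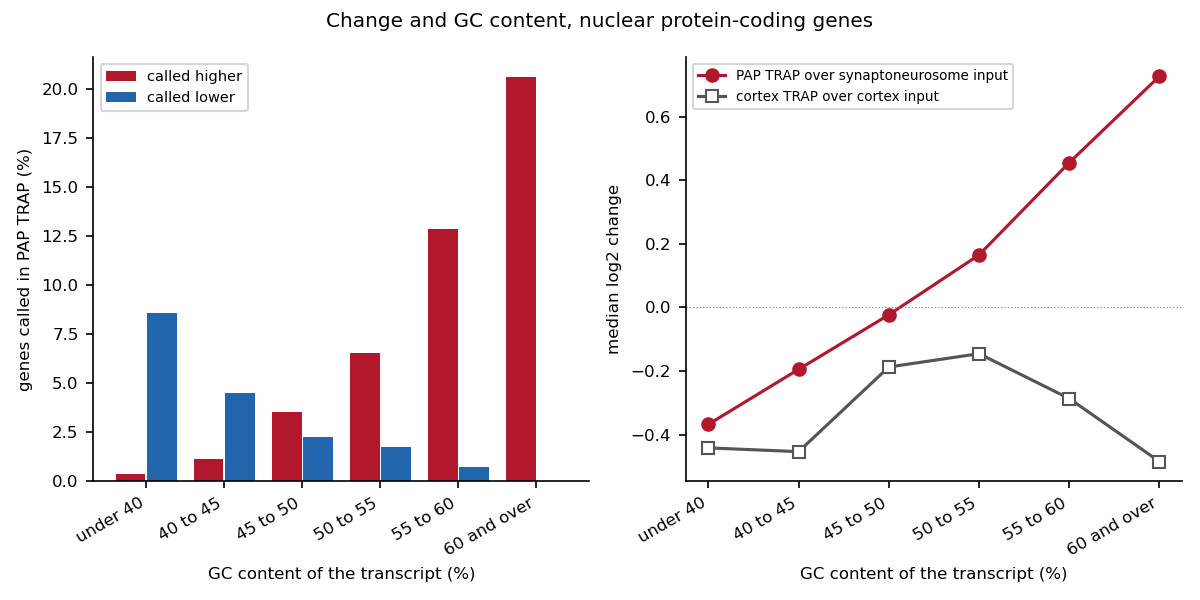
Share of 6127 nuclear protein-coding genes called higher or lower in PAP TRAP (left, bars from 0) and median log2 change of the pull-downs from the fraction and from whole tissue (right), by GC content of the transcript. The share called higher climbs from 0.343% to 20.6% and the median for PAP TRAP from −0.37 to 0.73 across the bins, while the median for cortex TRAP stays between −0.49 and −0.15.

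4 short motifs of RNA-binding proteins were counted on the sense strand of the 3′ UTR of the transcript with the longest coding sequence, for 340 higher, 154 lower and 6014 tested genes. ACTAAC, a motif of Quaking proteins, which bind many astrocyte and myelin messages, was found in 23.8% of higher, 24.7% of lower and 24.7% of all tested genes. These shares lay within 1 percentage point of each other, and sites per kilobase of 3′ UTR were 0.160, 0.134 and 0.158. Split by the whole tissue, it was in 23.5% of the 85 higher genes lower in cortex TRAP and in 27.8% of the 162 higher in both pull-downs. These 85 and 162 genes had 0.122 and 0.217 sites per kilobase. TTTTAT, the cytoplasmic polyadenylation motif, was in 45.3% of higher, 75.3% of lower and 64.6% of all. It was in 48.2% and 46.9% of the same 85 and 162 genes, which had 0.489 and 0.596 of its sites per kilobase. TATTTAT, of AU-rich elements, which can share letters with the polyadenylation motif, was in 28.5% of higher, 53.3% of lower and 36.5% of all. Among the higher genes it was in 41.2% of the 85 that were lower in cortex TRAP, above the share of all tested genes. It was in 17.3% of the 162 that were higher in both pull-downs. Per kilobase of 3′ UTR these 85 and 162 genes had 0.323 and 0.151 sites, against 0.284 in all tested genes. TGTANATA, of Pumilio proteins, was in 23.5% of higher, 46.8% of lower and 34.2% of all, and in 30.6% and 16.7% of the same 85 and 162 genes. The 3′ UTRs of higher, lower and all tested genes had a median GC content of 50.1%, 38.8% and 43.4%, which bears on how often letters rich in A and T occur. Their median lengths were 1499, 1940 and 1564 bases. For the 85 and 162 genes they were 1938 and 1324 bases. Length bears on whether a motif is found at all. A match is a description and not a site of binding. Examples are printed in 5′ to 3′ sense direction with the motif in capitals, on GRCm38. The Quaking motif comes first, in 4 genes that rose, and then the polyadenylation motif, in 3 genes that fell. Because the motif differs between the directions, and both motifs occur in higher and lower genes, the examples do not compare the groups.
Ndrg2, minus strand, chr14:51905452-51905481: tcctttggccacACTAACttggatagctgt
Gfap, minus strand, chr11:102888472-102888501: ccttcaccttcaACTAACaggatactcacc
Hepacam, plus strand, chr9:37385101-37385130: gattttatggaaACTAACagtaattttacc
Scd1, minus strand, chr19:44397837-44397866: ttctgttgattaACTAACaactggatattg
Gpm6a, plus strand, chr8:55059294-55059323: gaaaatagctttTTTTATactttttagttt
Syt1, minus strand, chr10:108499468-108499497: tgtaacaaaataTTTTATtatataaaacca
Gria2, minus strand, chr3:80688187-80688216: agatgtgacctgTTTTATaaaaaaaaagag
These windows come from the 3′ UTRs of the GENCODE M21 transcripts. The transcript named for each gene may not be the one expressed in the fraction.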

How the data were processed

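RNA of 12 libraries in 4 groups of 3 was sequenced, and 6 libraries enter the comparison. The deposited values are raw whole-number counts per gene, as read from the files. Per the labels' protocols, libraries started from 2 ng of RNA amplified as cDNA by SPIA, with no molecular identifiers mentioned. Trimmomatic 0.32, Bowtie2, STAR and HTSeq appear in the submitters' processing notes, with no role or order. The genome build, the annotation and any strand setting: not given in the sources used here. Counts of overlapping, antisense and near-identical genes are therefore uncertain. Rows that name no gene held 20.3% to 55.5% of counts per library and were left out.

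Genes were filtered with filterByExpr (minimum count 10, total 15), which kept 13364 of 41388. All 12 libraries were fitted together with edgeR 4.0.16 (R 4.3.3, TMM scaling, quasi-likelihood F test, Benjamini-Hochberg threshold 0.05), with 1 mean per group. CPM are TMM-normalized. The SE is the log2 change divided by the square root of F. Transcripts, their GC content and gene positions were taken from GENCODE M21, which is on GRCm38. No 2 libraries of a group agreed within sampling noise. The replicate numbers were not used to pair the libraries in the main fit.

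The members and gene lists were chosen with earlier results of these data known. Named genes are the 15 largest changes in each direction among called genes at a log2 CPM of 3 or more on average whose groups do not overlap, the 10 called genes of highest mean CPM in each direction, called members of the lists, the 10 largest differences between fractions in each direction, and a fixed set of markers. The text names only some of these. Ighm, Ighg1, Cd53, Blnk, Cd79b and Ms4a1 were named as members of the B lineage list. Some items are not reported here.

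Alternatives were RLE scaling, no filter, DESeq2 1.42.0, the 6 libraries alone, a replicate block, no mitochondrial genes, GC-corrected or length-corrected offsets (loess span 0.3), a minimum fold of 1.5, thinned counts, and each library left out. In counts simulated for PAP TRAP against synaptoneurosome input over 12825 genes, 23 of 49 genes raised 4-fold, 9 of 44 lowered 4-fold, 0 of 48 raised 2-fold, 2 of 47 lowered 2-fold and 0 of 12637 unchanged genes were called. Each simulated gene had its mean level over the libraries of all groups, and few genes were changed, in PAP TRAP alone. The real data differ in both, so these shares are not the sensitivity of the real comparison.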

Additional observations from a re-analysis of the deposited data

Results flagged for a closer look

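The change on pull-down differed between the fraction and the whole tissue for 41 of 55 named genes, by the interaction term of the edgeR fit (fraction minus whole tissue, log2, adjusted p under 0.05), where 20.2% of all genes tested had a called difference. The genes were chosen with earlier results of these data known, so the count says nothing about genes in general. No explanation was tested.

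Among astrocyte and metabolic genes the difference was negative: −2.02 for Aldh1l1, −3.14 for Aldoc, −3.46 for Aqp4, −3.17 for Ezr, −3.12 for Gfap, −3.13 for Gja1, −2.95 for Glul, −2.75 for Gstm1, −3.30 for Hepacam, −2.67 for Mt2, −3.23 for Ndrg2, −2.96 for Scd1, −2.56 for Slc1a2 and −3.39 for Slc1a3. All of these had positive changes in both pull-downs, smaller in the fraction. In the fraction Aldh1l1, Aqp4, Gja1, Slc1a2 and Slc1a3 were not called by edgeR on all libraries and genes, though DESeq2 called Aldh1l1 (adjusted p = 0.0376).

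Dendritic and cytoskeletal genes had positive differences: 4.81 for Camk2a, 4.70 for Ddn, 4.63 for Dlgap3, 4.06 for Shank3, 1.65 for Ppp1r9b, 3.95 for Dst, 2.74 for Macf1, 4.03 for Plec, 4.65 for Myo5a, 3.69 for Myh9 and 6.04 for Lcp1. These genes were higher in the fraction and had a negative change in the whole tissue, which was near 0 for Ppp1r9b (−0.04).

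Mbp had a difference of 4.38, and the other myelin genes 2.89 for Tspan2 and 2.55 for Ugt8a, which had negative changes in both pull-downs. The long noncoding RNA Miat had a difference of 8.46 and Malat1 of 3.99. Neuronal genes lower in both were Gria2, with 2.14, and Syt1, with 1.65, and Ighm had 2.38. Mitochondrial transcripts fell by less in the fraction, with 5.11 for mt-Co1, 3.53 for mt-Cytb, 2.89 for mt-Nd5, 1.58 for mt-Rnr1 and 3.39 for mt-Rnr2. Negative differences with a fall in the fraction were −3.77 for Igf2, −1.80 for Gpm6a and −3.07 for Ndufb9.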

How the results depend on the processing

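The number of genes called depended on the method. Against 605 (401 higher, 204 lower), DESeq2 called 1349 (716 and 633), GC-corrected offsets 323 (243 and 80) and a minimum fold of 1.5 left 137 (95 and 42). Without a filter on low counts 635 were higher. Leaving out 1 library gave 292 to 521 calls, 193 to 362 higher and 86 to 159 lower. RLE scaling gave 342 higher and 227 lower, and higher genes were 60.1% of calls by RLE, 53.1% by DESeq2 and 75.2% with GC-corrected offsets, against 66.3%. The sign turned for Aqp4, to −0.17 (0.65 without PAP TRAP replicate 3), and Gja1, to −0.13 (0.63 without PAP TRAP replicate 1), without PAP TRAP replicate 2, and neither was called. Of the 55 named genes, 7 calls were lost with GC-corrected offsets, 12 with the minimum fold, and 1 to 9 when 1 library was left out. Calls were gained for 2 genes by DESeq2, 3 without a filter, 3 without mitochondrial genes and 3 without PAP TRAP replicate 1. The difference between fractions had 2161 to 2999 calls when any 1 of the 12 libraries was left out, against 2699.

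With the replicate number as a block 638 genes were called (426 higher, 212 lower). Over 6703 genes, correlations of same-numbered libraries were 0.04, 0.12 and 0.10, and those of differently numbered libraries −0.13 to 0.04. For replicates 2 and 3 the same number gave the highest correlation, though a weak one. Replicate 2 of both pull-downs had the largest share of unaligned reads in its group (11.9% in PAP TRAP and 11.3% in cortex TRAP). The labels do not say what a number marks, so whether the numbers mark pairs is not settled, and the main fit does not pair them. Under the block 1 named gene, Cd53, changed its call (edgeR adjusted p = 0.0446, against 0.0507). The input libraries were the shallower ones, with 1423296 to 2476076 nuclear counts. Counts of nuclear genes thinned to the smallest library gave 724 calls, and which genes depth kept from a call was not tested.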

Other observations

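Genes of the endoplasmic reticulum, where secreted and membrane proteins are made, tended to have negative changes. Of 24 translocation, chaperone and folding genes tested 3 had a positive change, 0 rose and 1 fell by edgeR, 7 fell by DESeq2, and the median log2 change was −0.54, against 0.06 over all genes tested. The edgeR count was 0 to 2 when 1 library was left out and 0 with GC-corrected offsets. Among 39 translation initiation and elongation factors 2 rose and 0 fell (median 0.20), and 0 to 2 rose when 1 library was left out. By edgeR 3.0% of all genes tested rose and 1.53% fell.

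Miat, a long noncoding RNA of neurons, had 15.9, 7.27 and 18.6 CPM in PAP TRAP and 0.608, 1.49 and 3.47 CPM in synaptoneurosome input (log2 change 2.81 ± 0.62, edgeR adjusted p = 0.014). Its groups did not overlap. The call was lost without synaptoneurosome input replicates 1 or 2 (edgeR adjusted p = 0.0677 and 0.0654), and the log2 change was 3.73 without synaptoneurosome input replicate 3.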
